A study of Mus musculus with 9 samples.

Results

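Glutathione S-transferases (GSTs) and the other genes of thiol and oxidant defence were followed across the cell types of injured mouse liver. The members were all 27 genes whose symbols begin with Gst plus a class letter (alpha, kappa, mu, omega, pi, theta or zeta) or with Mgst, and 26 further named genes. Together they make 53 of the 53713 rows of a gene-named matrix. The other named genes cover glutathione synthesis and reduction, glutathione peroxidases, thioredoxin and peroxiredoxins, catalase and superoxide dismutases, metallothioneins, and the NRF2 regulators with the target gene Nqo1. Membership was set by name and family, not by level.

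GSTs join glutathione, a cysteine-containing tripeptide, to electrophiles such as drug metabolites and products of lipid peroxidation, so that they can be exported. Glutathione peroxidases and peroxiredoxins reduce peroxides at the expense of glutathione or thioredoxin, and metallothioneins are small cysteine-rich proteins that bind zinc and copper. Carbon tetrachloride (CCl4), the agent given here, is turned into radicals by the cytochrome P450 enzyme CYP2E1 in hepatocytes around the central vein.

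All mice were C57BL/6J, aged 6-8 weeks per the labels, and cells came from enzyme-digested livers after lysis of red blood cells. The mice labelled CluKO received recombinant human clusterin during CCl4 injection, for a time that the labels do not give, and the labels do not say how Clu was deleted. Wild-type mice received CCl4 for 0, 2 or 4 weeks, with 1 sample each. The 6 CluKO samples, which the series text describes as 3 mice, were deposited together, and nothing in the barcodes tells them apart, so they form 1 pooled sample. Clu itself was counted in that matrix, with 13751 UMIs in the cells kept. Whether these counts go against the label was not tested, because how Clu was deleted is not given. The matrix is therefore called the matrix labelled CluKO.

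Transcripts were counted as unique molecular identifiers (UMIs) at their poly-A end, so a gene's count does not scale with its length. The matrix labelled CluKO held 4694 cells and 28912707 UMIs, and 4616 cells passed the quality limits, with 2371 to 40710 UMIs each and a median of 4857. The wild-type matrices held 20215, 7739 and 15133 cells at 0, 2 and 4 weeks, but their rows are not paired with gene names, so the members were not analysed there. What follows compares cell types within the matrix labelled CluKO and says nothing on the effect of CCl4, of clusterin or of the genotype. With 1 pooled sample no test was possible and no p-value is given. All intervals are 95% and cover counting error alone, not the spread between mice.

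Cells were sorted into classes by gates on marker transcripts, none of which is a member. Of the cells kept, 4030 fell into 1 of 16 classes, 272 passed no gate and 314 passed several and were left out. The classes of at least 50 cells were 587 hepatocyte-gated, 493 mesothelial-gated, 598 Kupffer-gated, 960 Gpnmb-high macrophages, 146 macrophages with both marker sets, 137 with neither, 231 monocytes, 201 neutrophils, 221 granulocyte-monocyte progenitors, 68 dendritic cells, 177 plasma cells, 51 basophils or mast cells and 95 erythroid cells. The classes are named after the markers that gated them, so the marker sums given next follow from the gates and do not test the names. The 13 hepatocyte markers summed to 53616 UMIs per 1000000 (CPM) in hepatocyte-gated cells and 1201 CPM in the other gated cells, and the 10 mesothelial markers to 6446 and 16.7 CPM in mesothelial-gated cells and the others. No hepatocyte marker was at 0 outside hepatocytes, and Alb stood at 7210 CPM in hepatocyte-gated cells, 661 CPM in Kupffer-gated cells and 65.3 CPM in mesothelial-gated cells. Haemoglobin and other erythroid markers summed to between 4380 and 6875 CPM in every other class of 50 cells or more. Whether a low level of a hepatocyte or erythroid transcript in another class is free RNA was not tested, except where a subtraction is given.

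The genes sit partly in clusters of close copies, which bears on how well their counts can be told apart. On GRCm38, 7 mu-class genes lie between Gstm5 and Gstm4 on chr3:107895821-108044894, the 4 theta genes on chr10:75774115-75837424, the pi genes Gstp1, Gstp2 and Gstp3 on chr19:4035407-4059569, and Gsta4, Gsta1 and Gsta2 on chr9:78182774-78355788. Gsta3 stands apart on chromosome 1. Mt2 and Mt1 are neighbours on chr8:94172664-94180327. Of the stretches of 31 bases in the last 500 bases of the transcripts, 87.2% of those of the pseudogene Gstp-ps also occur in Gstp2 and 74.0% in Gstp1, 58.5% of those of Gstp2 occur in Gstp1, 56.0% of those of Gsta2 in Gsta1, and 22.8% of those of Gstm1 in Gstm3. Counts of Gstp-ps, Gstp2, Gsta1, Gsta2 and Gstm2-ps1 are uncertain for that reason. Of the stretches of Gstp1, 42.2% occur in Gstp2 and 27.0% in Gstp-ps. Counts of Gstp1 and Gstm1 therefore carry part of this uncertainty, which their intervals do not cover. Gstp-ps took 18.4% of the summed Gstp1 and Gstp-ps counts in hepatocyte-gated cells (17.8 to 19.0%), 19.3% in mesothelial-gated cells and 26.8% in Kupffer-gated cells (22.9 to 30.9%).

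**Figure D1:**
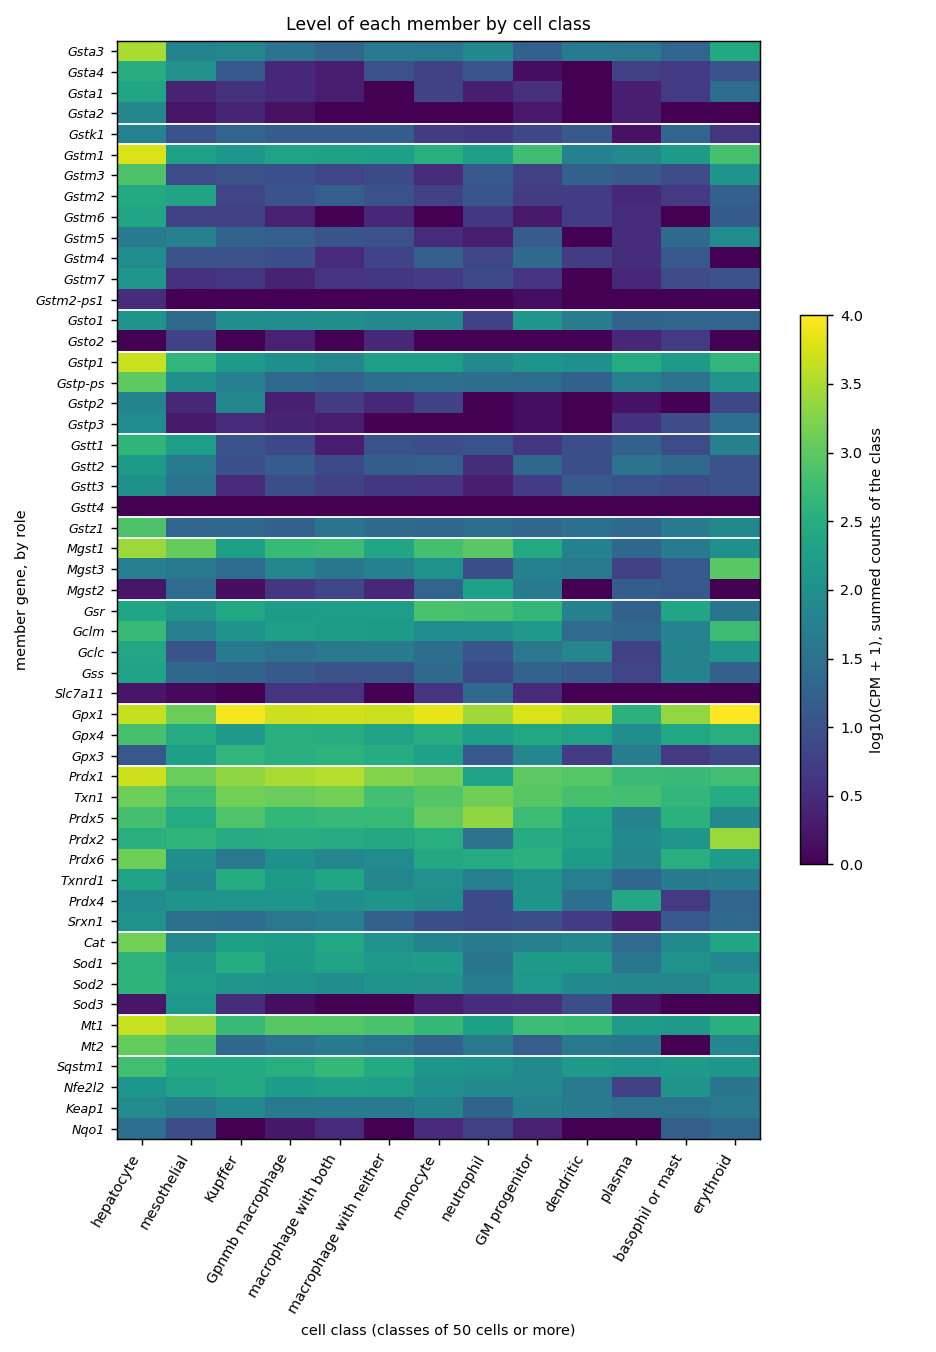
Level of each of the 53 members (rows, grouped by role with white lines between roles) in the 13 classes of at least 50 cells (columns), as log10 of CPM plus 1 from the summed counts of each class. Most GST rows are brightest in the hepatocyte column, Gpx1 is bright in nearly every column, and Prdx2 and Mgst3 stand out in erythroid cells.

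Members took 4.54% of the UMIs of hepatocyte-gated cells (4.52 to 4.56%), the highest share of any class. The share was 1.16% in mesothelial-gated cells, 1.75% in Kupffer-gated cells, 1.46% in Gpnmb-high macrophages, 1.86% in erythroid cells and 0.332% in plasma cells. Levels are ranked here and below among the 13 classes of at least 50 cells. By that ranking hepatocytes held the highest level of 34 members, erythroid cells of 5, Kupffer-gated cells of 4, neutrophils of 3 and mesothelial-gated cells of 2, and 4 further classes of 1 each. The ranking was not made for all genes, so these counts have no share over all genes beside them. The 16 endothelial-gated and 9 B-gated cells stood outside this ranking, and a few members had more CPM there from few UMIs, among them Gstk1 at 108.9 CPM in endothelial-gated cells and Gstt2 at 180 CPM in B-gated cells. Gstt4 had no UMI in any cell, which at 3 counts allows up to 1.12 CPM in hepatocyte-gated cells.

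Most cytosolic GSTs of the alpha, mu, pi, theta and zeta classes were higher in hepatocyte-gated cells. A member was counted as higher or lower where its CPM differed at least 2-fold, provided that one side reached 50 CPM and the summed count reached 30. By this rule 33 of the 53 members were higher in hepatocyte-gated cells than in all other gated cells, 1 was lower, 11 stayed within 2-fold and 8 were under the minimum. Of the 4101 genes that passed the minimum, 28.2% were higher and 28.5% lower. The median log2 ratio, with 20 CPM added to each side, was 1.51 over all 53 members and 0.10 over the genes that passed. The hepatocyte-gated cells were shallower, with a median of 3383 UMIs against 5375, and mitochondrial transcripts summed to 4056 CPM in them and 18270 CPM in the others.

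Among alpha-class enzymes, Gsta3 stood at 3145 CPM in hepatocyte-gated cells and 44.9 CPM in the others, a ratio of 70.0 (65.6 to 74.8). Gsta3 was detected in 581 of 587 hepatocyte-gated cells, and no other class of at least 50 cells passed 263 CPM, the level in erythroid cells. Gsta4, whose enzyme acts on the lipid aldehyde 4-hydroxynonenal, had 304 CPM in hepatocyte-gated cells and 22.2 CPM elsewhere, and its second level was 103 CPM in mesothelial-gated cells. Gsta1 had 224 and 2.29 CPM, and Gsta2 69.9 and 0.661 CPM, in hepatocyte-gated and other cells. Erythroid cells, with 263 CPM of Gsta3, had 154 CPM of Alb, and Kupffer-gated cells, with 66.0 CPM of Gsta3, had 661 CPM of Alb. The part of free RNA in the alpha-class levels outside hepatocytes was not tested.

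In the mu class, Gstm1 was at 6181 CPM in hepatocyte-gated cells against 229 CPM in the other gated cells, a ratio of 26.9 (26.1 to 27.8). Outside hepatocytes Gstm1 was not even: it stood at 583 CPM in granulocyte-monocyte progenitors, 683 CPM in erythroid cells, 328 CPM in monocytes and 56.8 CPM in dendritic cells. Alb, the hepatocyte transcript for albumin, was 45.2 CPM in progenitors, 154 CPM in erythroid cells, 111 CPM in monocytes and 244 CPM in dendritic cells, and the part of free RNA in these Gstm1 levels was not tested. Gstm3 had 771 and 9.52 CPM in hepatocyte-gated and other cells, Gstm6 229 and 2.60 CPM, Gstm7 125 and 2.78 CPM, and Gstm4 86.6 and 9.35 CPM. Gstm2 was shared, with 278 CPM in hepatocyte-gated cells and 213 CPM in mesothelial-gated cells, and no other class of 50 cells or more exceeded 15.7 CPM. The 16 endothelial-gated cells had 145 CPM of Gstm2 from 8 UMIs. Gstm5 was under the minimum in hepatocytes, at 43.1 CPM, and highest in erythroid cells at 87.8 CPM, a value that rests on 28 UMIs.

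Gstp1, the main pi-class enzyme, had 4535 CPM in hepatocyte-gated cells and 188 CPM in the others (24.1-fold, 23.3 to 25.0), with 429 CPM in mesothelial-gated cells. Gstp3 followed with 84.8 and 2.03 CPM. The theta enzymes Gstt1 (413 and 38.4 CPM), Gstt2 (152 and 20.6 CPM) and Gstt3 (102 and 10.98 CPM) were likewise higher in hepatocyte-gated than in other cells. Gstz1, which also serves tyrosine breakdown as maleylacetoacetate isomerase, had 761 and 21.2 CPM (35.9-fold, 32.5 to 39.7). Gstk1, of mitochondria and peroxisomes, had 58.7 and 10.98 CPM and did not pass after thinning. The omega enzyme Gsto1 was the exception among abundant cytosolic GSTs, at 117 CPM in hepatocyte-gated cells and 68.9 CPM elsewhere, within 2-fold, and among classes of at least 50 cells highest in granulocyte-monocyte progenitors at 125 CPM. The 16 endothelial-gated cells had 163 CPM of Gsto1 from 9 UMIs. Gsto2 had no UMI in hepatocytes and 5.10 CPM, from 21 UMIs, in mesothelial-gated cells.

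The microsomal members each peaked in another class. Mgst1, a membrane-bound transferase and peroxidase, was highest in hepatocyte-gated cells at 2478 CPM, then in mesothelial-gated cells at 1149 CPM, in neutrophils at 942 CPM and in monocytes at 663 CPM. Mgst3 stood at 934 CPM in erythroid cells and at most 108 CPM, in monocytes, in any other class of at least 50 cells. Mgst2 was highest in neutrophils at 193 CPM, with 44.8 CPM in granulocyte-monocyte progenitors and 0.743 CPM in hepatocyte-gated cells. It was detected in 51.7% of neutrophils and 0.341% of hepatocyte-gated cells, at median depths of 3521 and 3383 UMIs.

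**Figure D2:**
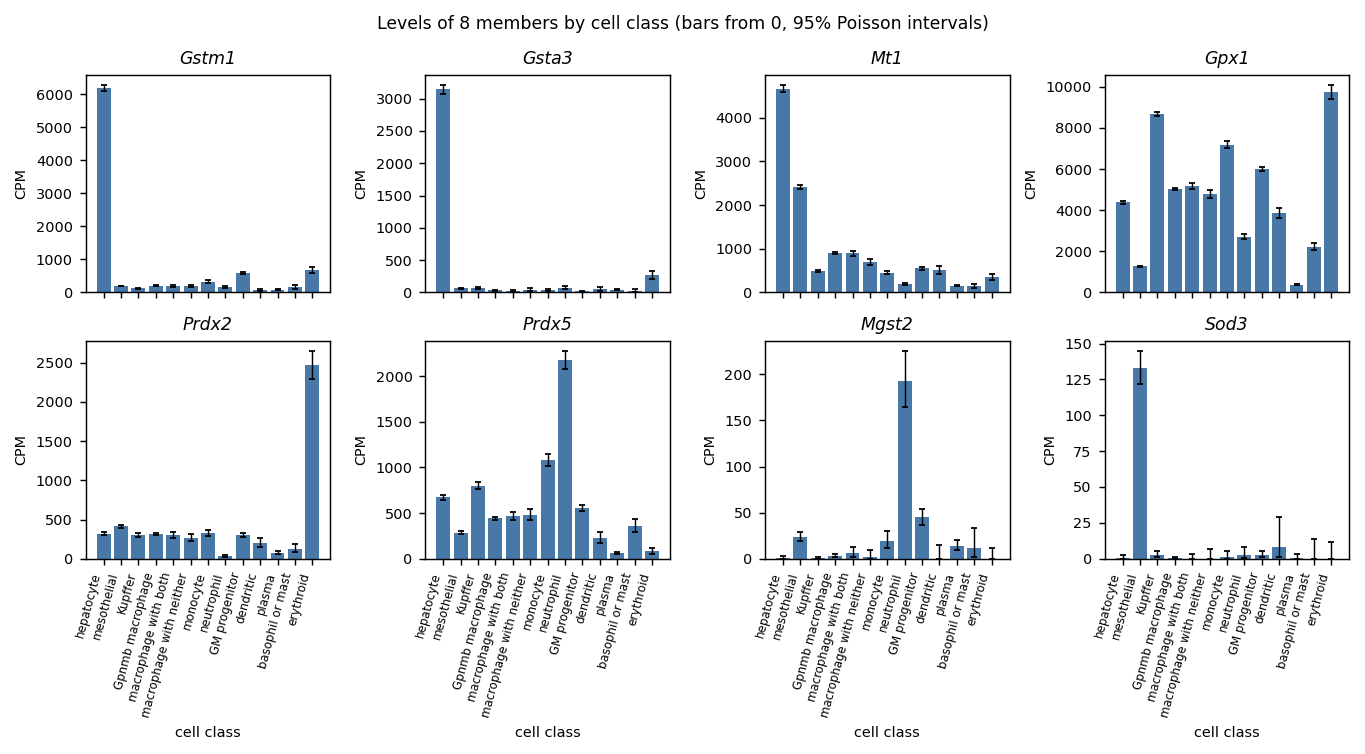
Level in CPM (vertical axis, from 0, scale set per gene) of 8 members in the 13 classes of at least 50 cells (horizontal axis), with 95% Poisson intervals that cover counting error. Gstm1, Gsta3 and Mt1 are highest in hepatocytes, Gpx1 and Prdx2 in erythroid cells, Prdx5 and Mgst2 in neutrophils, and Sod3 in mesothelial-gated cells.

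Genes that make glutathione were also higher in hepatocyte-gated cells. Gss, glutathione synthetase, had 217 CPM there and 15.2 CPM in the other gated cells. Gclc, the catalytic subunit of the rate-limiting glutamate-cysteine ligase, had 249 and 29.4 CPM, and Gclm, its modifier subunit, 498 and 125 CPM. Gclm reached 546 CPM in erythroid cells, where Gclc was 119 CPM. Gsr, which regenerates reduced glutathione, was 226 and 220 CPM in hepatocyte-gated and other cells, a ratio of 1.03 (0.941 to 1.12), and was higher in monocytes at 701 CPM and neutrophils at 645 CPM. Slc7a11, which imports cystine, had 2 UMIs in hepatocyte-gated cells, and its highest level was 22.1 CPM in neutrophils, from 19 UMIs.

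The peroxide-removing enzymes were divided between classes. Catalase (Cat, 1397 and 120 CPM), Prdx6 (1308 and 137 CPM), Prdx1 (4988 and 1924 CPM) and Gpx4, which reduces lipid hydroperoxides in membranes (673 and 261 CPM), were higher in hepatocyte-gated than in other cells. So were Srxn1, Sod1 and Sod2, at 109, 383 and 405 CPM in hepatocyte-gated cells against 25.4, 153 and 117 CPM. Gpx1 was at 4378 and 4476 CPM, Prdx2 at 320 and 327 CPM, Txn1 at 1310 and 998 CPM, and Txnrd1 at 210 and 130 CPM, all within 2-fold. Gpx3, the secreted peroxidase, was the single member called lower, at 11.5 CPM from 31 UMIs in hepatocyte-gated cells and 234 CPM in the others.

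Outside hepatocytes, erythroid cells had the highest Gpx1 (9748 CPM) and Prdx2 (2467 CPM), both known as abundant peroxidases of red cells. In erythroid cells 6 members were higher and 16 lower than in the other gated cells, against 9.68% and 60.3% of all genes that passed the minimum. Here and for the classes below, members are counted out of all 53, including those under the minimum. The shares are of genes that passed it, so counts and shares have unlike bases. Prdx2 was 8.26-fold higher there (7.67 to 8.89) and Mgst3 19.1-fold (16.8 to 21.7). Neutrophils had the highest Prdx5 at 2172 CPM, with 3 members higher and 24 lower, against 11.5% and 54.2% of all genes. Among classes of at least 50 cells, Kupffer-gated cells had the highest Gpx3 (436 CPM), Txnrd1 (301 CPM), Nfe2l2 (274 CPM) and Gstp2 (67.9 CPM), while Nfe2l2 was 417 CPM, from 23 UMIs, in the 16 endothelial-gated cells. Kupffer-gated cells had 5 members higher and 15 lower, against 19.3% and 13.2%. Monocytes had 2 higher, Gsr and Prdx5, and 14 lower, against 11.4% and 13.6% of all genes. Plasma cells had 1 higher, Prdx4 of the endoplasmic reticulum at 258 CPM, and 30 lower, against 5.13% and 55.9%. In Gpnmb-high macrophages 1 member, Gpx3, was higher than in all other gated cells and 11 were lower, against 9.83% and 14.9% of all genes. In granulocyte-monocyte progenitors 1, Gsr, was higher and 16 lower, against 21.1% and 17.8%. No member was higher in dendritic cells, in basophils or mast cells, or in macrophages with both or neither marker set, against 13.7%, 14.9%, 9.49% and 5.99% of all genes, while 22, 25, 11 and 13 were lower, against 18.4%, 25.5%, 12.7% and 11.9%. Immunoglobulin transcripts in plasma cells and S100a8 and similar transcripts in neutrophils take a large part of the counts: the marker lists summed to 187951 and 391735 CPM in those classes, and to 528081 CPM in erythroid cells.

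NRF2, encoded by Nfe2l2, is the transcription factor that drives many GST and glutathione genes, and KEAP1 holds it in check. Nfe2l2 was 124 CPM in hepatocyte-gated cells and 151 CPM in the others, and Keap1 82.9 and 47.5 CPM, both within 2-fold. Sqstm1, which binds KEAP1 in autophagy, had 617 and 254 CPM. Nqo1, a classical NRF2 target, stayed under the minimum, with 27.9 CPM from 75 UMIs in hepatocyte-gated cells. Of 22 other NRF2 targets, 7 were higher in hepatocyte-gated cells, 6 lower, 5 within 2-fold and 4 under the minimum, against 28.2% higher and 28.5% lower over all genes that passed. Ugdh (412 and 62.1 CPM) and Abcc2 (81.8 and 1.28 CPM) were among the higher, while G6pdx (3.72 and 92.4 CPM) and Hmox1, the haem oxygenase of iron recycling (24.5 and 782 CPM), were among the lower. Hmox1 reached 1577 CPM in Gpnmb-high macrophages and 1264 CPM in Kupffer-gated cells.

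Of 14 genes for sources of oxidants, Cyp2e1 (702 and 3.84 CPM) and the aldehyde oxidase Aox3 (155 and 5.38 CPM) were higher in hepatocyte-gated cells and 8 were lower, with 1 within 2-fold and 3 under the minimum, against 28.2% higher and 28.5% lower over all genes. The NADPH oxidase subunits Cybb (7.81 and 543 CPM) and Cyba (36.4 and 1526 CPM) were among the 8. Of 20 other redox enzymes, 7 were higher and 2 lower, against the same 28.2% and 28.5%, and Hagh (483 and 47.7 CPM) and Msra (343 and 33.9 CPM) led the higher ones. Both lower ones, Gpx7 and Gpx8, were marked in mesothelial-gated cells.

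Metallothionein levels split the classes in another way. Mt1 was 4671 CPM in hepatocyte-gated cells, 2407 CPM in mesothelial-gated cells and at most 898 CPM, in Gpnmb-high macrophages, in the other classes of 50 cells or more. Mt2 was 1140 CPM in hepatocyte-gated cells, 670 CPM in mesothelial-gated cells and at most 69.0 CPM in the other classes of 50 cells or more. The 16 endothelial-gated cells had 90.7 CPM of Mt2 from 5 UMIs. Against all other gated cells, Mt1 was 4.89-fold higher in hepatocyte-gated cells (4.78 to 5.00) and Mt2 7.84-fold higher (7.46 to 8.24).

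Metallothionein genes are known to be switched on by zinc through MTF1, which binds metal response elements whose core is written here as TGCACNC or TGCGCNC. The 250 bases before the RefSeq start of both genes (build GRCm38.p6, plus strand) are shown because both transcripts were highest in the same pair of classes and varied together from cell to cell. Capitals mark matches to either core on either strand. The windows are chr8:94178839-94179088 for Mt1 and chr8:94172368-94172617 for Mt2.
Mt1: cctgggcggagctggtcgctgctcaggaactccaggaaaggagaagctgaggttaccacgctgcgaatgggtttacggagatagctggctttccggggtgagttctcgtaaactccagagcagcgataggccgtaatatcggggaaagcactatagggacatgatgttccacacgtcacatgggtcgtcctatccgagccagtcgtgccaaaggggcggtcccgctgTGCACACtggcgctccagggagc
Mt2: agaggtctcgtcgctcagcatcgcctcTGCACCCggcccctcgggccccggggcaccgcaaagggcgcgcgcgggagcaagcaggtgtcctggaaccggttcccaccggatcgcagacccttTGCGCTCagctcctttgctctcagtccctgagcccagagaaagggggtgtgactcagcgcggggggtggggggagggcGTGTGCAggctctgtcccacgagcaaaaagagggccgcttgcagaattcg

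The Mt2 window held 3 such cores and the Mt1 window 1. With the 50 bases after the start included, Mt2 held 4 and Mt1 3. The windows are not placed alike against the GENCODE genes. The Mt1 window runs past its gene's GENCODE start at 94179082, while the Mt2 window ends before its gene's start at 94172664. The difference in cores between the windows therefore does not compare the same stretch of both genes. At least 1 core was found in 21.4% of the 32851 RefSeq promoter windows of the same length, and 3 or more in 1.26% (1.97% with the 50 bases after the start). Of the 45 members matched to this table, 13 held at least 1 core. The antioxidant response element, the NRF2 site with the core TGACNNNGC, occurred in 10.2% of all windows and in 10 of the 45, which were Gclm, Gsta3, Gstm5, Gstm7, Mgst1, Mt2, Nfe2l2, Prdx1, Sod1 and Txnrd1. In the Mt2 window the antioxidant core did not overlap a metal core, and the Mt1 window held no antioxidant core. The percentages are per window, while members were counted per gene, with a match in any of a gene's windows. The counts of members and the percentages are therefore not like for like. A match describes the letters of the window only.

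Single hepatocyte-gated cells differed more in Mt1 than in the leading GSTs. Each cell was thinned to 1000 UMIs, so that depth could not set the counts. Gstm1 then had a median of 5 UMIs per cell, with a 10th percentile of 1 and a 90th of 13, and Gstp1 had 4, 1 and 8. Mt1 had a median of 2, a 10th percentile of 0 and a 90th of 13.4, with up to 48, and 172 of 587 cells had none. Across the 587 cells Mt1 and Mt2 were correlated (Pearson r = 0.684), as were Gstm1 and Gstm3 (r = 0.588), which share part of their transcript ends. Across 493 mesothelial-gated cells r was 0.627 for Mt1 and Mt2. Mgst1 and Mt1 had r = -0.197 in hepatocyte-gated cells. These values describe cells of 1 pooled matrix, in which cells of the same mouse share their source, and which mouse a cell came from is not known.

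**Figure D3:**
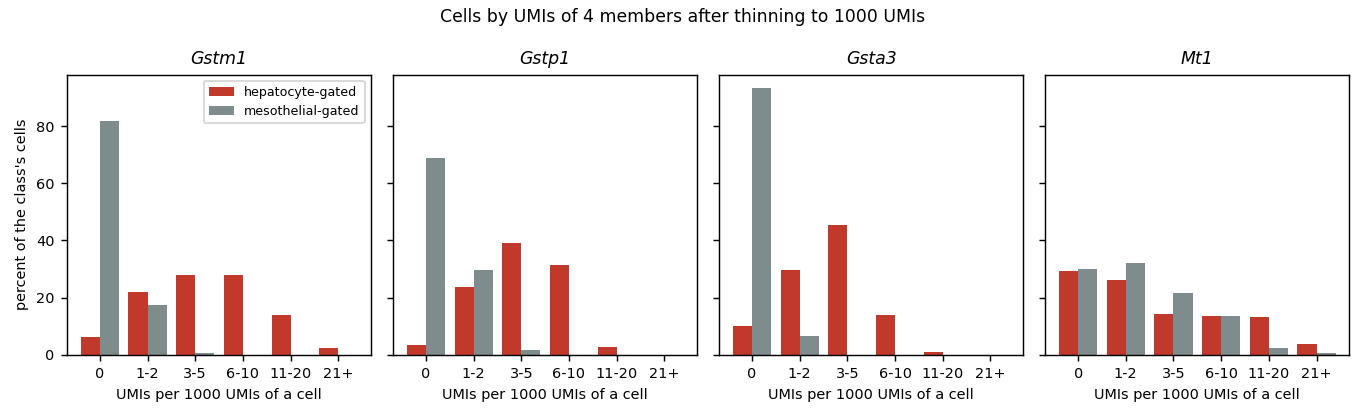
Percent of hepatocyte-gated cells (red, 587) and mesothelial-gated cells (grey, 493) by UMIs of Gstm1, Gstp1, Gsta3 and Mt1 after thinning each cell to 1000 UMIs. For Mt1, 29.3% of hepatocyte-gated cells and 30.02% of mesothelial-gated cells had no UMI, while for Gstm1 these shares were 6.30% and 81.9%.

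Mesothelial cells line the surface of the liver, and the study's title places the clusterin receptor LRP2 in them. Among the members, 7 were higher in mesothelial-gated cells than in all other gated cells, 13 were lower, 15 stayed within 2-fold and 18 were under the minimum. Over the 4099 genes that passed, 23% were higher and 16.7% lower. The median log2 ratio was -0.36 over the 53 members and 0.07 over the genes that passed.

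Sod3, the secreted superoxide dismutase, marked these cells, with 133 CPM in mesothelial-gated cells and 1.27 CPM in the others (105-fold, 71.1 to 160). Among those others, the 16 endothelial-gated cells had 72.6 CPM of Sod3 (19.8 to 186), from 4 UMIs. Sod3 was detected in 48.3% of mesothelial-gated cells and 0.341% of hepatocyte-gated cells, at median depths of 7273 and 3383 UMIs, and in 11.8% and 0% after thinning to 1000 UMIs. Gstm2 had 213 and 42.2 CPM, Mt2 670 and 170 CPM, Gstt1 174 and 59.5 CPM, Gstm5 54.8 and 16.9 CPM, Gsta4 103 and 42.2 CPM, and Mt1 2407 and 1144 CPM in mesothelial-gated and other cells. Mt1 was 2.10-fold higher (2.06 to 2.15), and its log2 ratio was 0.98, under 2-fold, when mitochondrial, haemoglobin and marker counts were taken out of the totals. Gstm5 and Gsta4 did not pass after thinning.

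Gpx1, the glutathione peroxidase of the cytosol, was lower, with 1259 CPM in mesothelial-gated cells and 5088 CPM in the others. Cat (75.5 and 290 CPM), Gclm (52.9 and 186 CPM), Gclc (9.46 and 61.1 CPM), Prdx6 (96.3 and 293 CPM) and Gsto1 (23.3 and 83.8 CPM) were lower as well. Gsta3 (61.2 and 434 CPM), Gstm1 (192 and 990 CPM), Gstm3 (7.28 and 106 CPM) and Gstz1 (19.4 and 115 CPM) were lower against a set of cells that includes hepatocytes. Prdx1, Prdx5 and Txnrd1 passed the rule narrowly, at 1215 and 2450 CPM, 284 and 584 CPM, and 69.2 and 152 CPM. With every other class given equal weight, an alternative chosen after seeing the data, these 3 did not pass, and Prdx1 also did not pass with doubled thresholds or after thinning.

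Other redox genes of mesothelial-gated cells included Gpx8 (355 and 0.891 CPM) and Gpx7 (311 and 12.0 CPM), peroxidases of the endoplasmic reticulum, and the zinc importer Slc39a8 (486 and 7.76 CPM). Of the 14 oxidant sources 0 were higher and 8 lower, against 23% higher and 16.7% lower over all genes that passed. Of 22 other NRF2 targets 3 were higher and 9 lower, against the same shares. Ephx1 (167 and 48.3 CPM) was among the higher and the ferritin light chain Ftl1 (471 and 4682 CPM) among the lower. Immediate-early and heat-shock genes, which rise during tissue dissociation, summed to 4617 CPM in mesothelial-gated cells and 1265 CPM in the others, with 6 of 9 called higher, against 23% of all genes. Their part in the metallothionein levels was not tested.

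**Figure D4:**
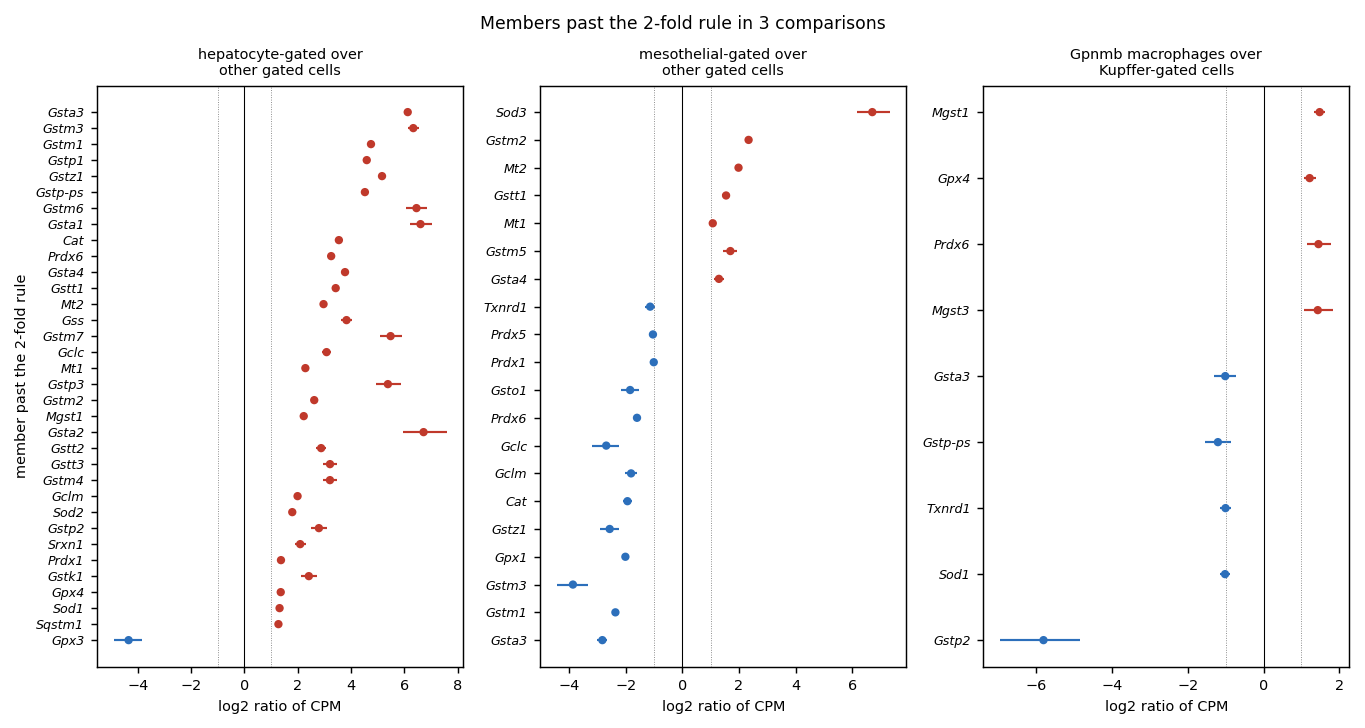
Members past the 2-fold rule in hepatocyte-gated over other gated cells (left), mesothelial-gated over other gated cells (middle) and Gpnmb-high macrophages over Kupffer-gated cells (right), as log2 ratio of CPM without offset, with 95% counting intervals as lines. Red marks higher, blue lower, and dotted lines show 2-fold, with Gpx3 the single blue point in the left panel and Sod3 the top point in the middle.

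Kupffer cells are the resident macrophages of the liver, and Gpnmb-high macrophages are known from injured and lipid-laden tissue. Compared with Kupffer-gated cells, 4 members were higher in Gpnmb-high macrophages and 5 lower, with 18 within 2-fold and 26 under the minimum. Of the 3587 genes that passed, 6.61% were higher and 17.2% lower.

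Mgst1 was at 520 CPM in Gpnmb-high macrophages and 186 CPM in Kupffer-gated cells (2.79-fold, 2.54 to 3.08). Gpx4 had 333 and 143 CPM, Prdx6 102 and 37.5 CPM, and Mgst3 68.4 and 25.4 CPM. The log2 ratio of Gpx4 was 0.87, under 2-fold, after thinning. Prdx1 (3082 and 2154 CPM) and Mt1 (898 and 492 CPM) stayed within 2-fold. Both ferritin genes, which store iron, were higher as well. Fth1 had 12065 and 3618 CPM and Ftl1 9239 and 2469 CPM in Gpnmb-high and Kupffer-gated cells.

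Gstp2 was close to absent from Gpnmb-high macrophages, with 9 UMIs (1.21 CPM), against 174 UMIs (67.9 CPM) in Kupffer-gated cells, a ratio of 0.0179 (0.00803 to 0.0347). It was found in 0.938% of Gpnmb-high macrophages and 21.2% of Kupffer-gated cells at median depths of 6827 and 4067.5 UMIs, and in 0 of 201 neutrophils at 3521 UMIs, which limits only the share of neutrophils with a Gstp2 UMI at that depth, to 1.49%. Hepatocyte-gated cells held Gstp2 at 62.8 CPM and hepatocyte markers summed to 1445 CPM in Gpnmb-high macrophages and 2166 CPM in Kupffer-gated cells. After the hepatocyte profile was subtracted from the other classes the log2 ratio of Gstp2 was -2.14, against -2.05 before. Because its transcript end is shared with Gstp1 and Gstp-ps, the count stays uncertain. The endothelial marker list stood at 25.6 CPM in Gpnmb-high macrophages and 874 CPM in Kupffer-gated cells, with none of its 7 genes at 0 in either, and its part was not tested.

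Sod1 (150 and 303 CPM) and Txnrd1 (150 and 301 CPM) were lower in Gpnmb-high than in Kupffer-gated cells by margins that several alternatives brought under 2-fold. Gsta3 (32.7 and 66.0 CPM) and Gstp-ps (22.4 and 51.5 CPM) did not pass once the hepatocyte profile was subtracted, with log2 ratios of 0.00 and -0.61. Gpx1 stayed within 2-fold at 5028 and 8676 CPM. Among oxidant sources Cybb (635 and 1372 CPM), Ncf1 (51.9 and 164 CPM) and Rac2 (277 and 567 CPM) were lower, and among NRF2 targets Ephx1 (10.8 and 253 CPM) and Abcc3 (86.1 and 335 CPM) were lower while 3 were higher.

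Within the hepatocyte-gated cells, position along the lobule was read from the balance of pericentral and periportal markers, the cells outside the Clu-high gate were cut into 3 equal parts along it, and the outer parts were compared. The 179 pericentral cells and 180 periportal cells had Cyp2e1 at 1394 and 32.9 CPM. Cyp2e1 is among the markers of the cut, so this difference follows from the cut and does not test the labels. Members higher in pericentral cells numbered 2 and members lower 3, with 38 within 2-fold, against 4.24% and 4.51% of the 3281 genes that passed.

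Gstm2 had 430 CPM in pericentral cells and 81.0 CPM in periportal cells (5.31-fold, 4.02 to 7.12). Sqstm1 had 927 and 443 CPM (2.09-fold, 1.83 to 2.39), and did not pass with doubled or halved thresholds or after thinning. Gstm1 (7202 and 4496 CPM) and Gsta3 (3938 and 2493 CPM) leaned the same way within 2-fold. Gpx1 was lower in pericentral cells, at 2668 CPM against 6845 CPM (0.390-fold, 0.370 to 0.410), and its log2 ratio was -0.99, under 2-fold, with halved thresholds. Gstt3 had 44.3 and 176 CPM, and Gsta2 37.0 and 98.9 CPM from 30 and 72 UMIs, and Gsta2 did not pass after thinning. Mt1 (3845 and 6353 CPM) and Mt2 (918 and 1626 CPM) were below in pericentral cells but within 2-fold. The acute-phase markers also differed, at 2960 CPM in pericentral cells and 7509 CPM in periportal cells.

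Acute-phase proteins are made by hepatocytes under interleukin-6 and similar signals. The 186 hepatocyte-gated cells with high Saa1, Saa2, Orm1, Orm2, Lcn2 and Hp were compared with 352 that had low levels, the Clu-high cells being left out of both. Of the members 2 were higher and 41 within 2-fold, with 0 lower, against 6.32% higher and 1.67% lower of the 3226 genes that passed. Mgst1 had 3922 CPM in acute-phase-high cells and 1705 CPM in acute-phase-low cells (2.30-fold, 2.18 to 2.42). Prdx4 had 106 and 49.2 CPM, from 83 and 77 UMIs. With the threshold doubled, which left 70 high cells, neither passed 2-fold, and the log2 ratio of Mgst1 was 0.87. Metallothioneins, which respond to interleukin-6 in liver, stood close together in acute-phase-high and acute-phase-low cells, with Mt1 at 5336 and 5103 CPM (1.05-fold, 1.01 to 1.09) and Mt2 at 1276 and 1275 CPM (1.00-fold, 0.926 to 1.08). The gate's threshold had 84 cells within 20% of it.

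A further gate took the 49 hepatocyte-gated cells with the highest Clu and Ly6d counts and set them against the other 538. The 2 sides held 338667 and 2351357 UMIs, at median depths of 3545 and 3360 UMIs per cell. Deeper cells weigh more in summed counts, and the numbers called with means over cells are given with the alternatives below. Of the members 3 were higher, 11 lower and 31 within 2-fold, against 12.8% higher and 11.8% lower of the 3398 genes that passed. The median log2 ratio was -0.32 over the 53 members and -0.14 over the genes that passed.

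Metallothioneins had the lowest ratios among the members called. Mt2 had 201 CPM in Clu-high cells and 1275 CPM in the other hepatocyte-gated cells (0.157-fold, 0.122 to 0.200), and Mt1 1134 and 5181 CPM (0.219-fold, 0.197 to 0.242). Cat (508 and 1525 CPM), Gstm3 (233 and 848 CPM), Gstz1 (301 and 827 CPM), Gpx1 (1872 and 4739 CPM) and Gsta3 (1465 and 3387 CPM) were lower too. Gsto1, Sod2, Sqstm1 and Gsta2 made up the 11, Gsta2 from 8 UMIs. Of these, Cat, Gsta3, Gsto1, Sod2, Sqstm1 and Gsta2 did not pass under at least 1 alternative. The higher members were Mgst3 (145 and 40.0 CPM), Nfe2l2 (301 and 98.2 CPM) and Prdx4 (186 and 68.0 CPM), and Mgst3 was under the minimum after thinning.

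Of 22 other NRF2 targets, 5 were higher in Clu-high cells and 0 lower, against 12.8% higher and 11.8% lower over all genes that passed. Ephx1 (334 and 54.9 CPM), Tkt (230 and 72.3 CPM), Abcc3 (53.2 and 8.51 CPM) and Abcc2 (180 and 67.6 CPM) were among the 5. The Clu-high cells also stood apart otherwise. Mitochondrial transcripts summed to 18393 CPM in Clu-high cells and 1992 CPM in the other hepatocyte-gated cells, periportal markers to 650 and 6182 CPM, cholangiocyte markers to 2055 and 83.8 CPM, and Gpnmb-macrophage markers to 2138 and 228 CPM. Spp1 belongs to both of the last-named lists. Hepatocyte markers were higher in the Clu-high cells, at 81322 and 49626 CPM. The part of these differences in the member levels was not tested, and 22 cells lay within 20% of the gate's threshold.

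**Figure D5:**
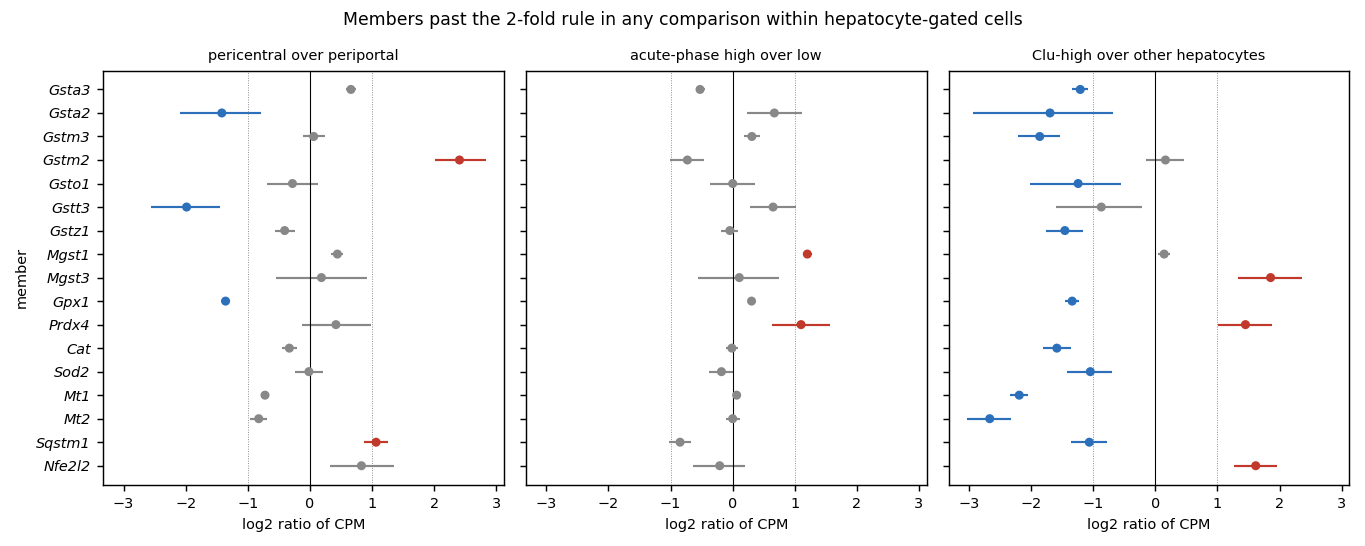
Log2 ratio of CPM, with 95% counting intervals, of the 17 members past the 2-fold rule in at least 1 of the comparisons within hepatocyte-gated cells, for pericentral over periportal, acute-phase-high over acute-phase-low, and Clu-high over other cells. Red marks higher, blue lower and grey neither, and Mt1 and Mt2 sit near 0 in the middle panel and at the far left in the right one.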

How the data were processed

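Single liver cells were profiled on the Singleron GEXSCOPE microwell platform, which captures poly-A RNA and tags each transcript with a UMI, per the labels. The authors deposited 4 sparse matrices of raw UMI counts, which were checked to be whole numbers. Per the submitters' processing notes, reads were placed on GRCm38; no aligner, counting program or cell-calling rule is given in the sources used here. The deposited gene table is as long as the CluKO matrix alone (53713 rows), so the rows of the wild-type matrices were left unnamed and the planned comparison of wild-type time points was not made. None of the 4694 barcodes was listed more than once, and 0 columns were left out as belonging to other series.

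Cells under 200 detected genes or over 20% mitochondrial counts were dropped. Classes were gated on summed marker UMIs per 10000. The thresholds were 100 for hepatocyte, 10 for mesothelial, 40 for macrophage, 25 for monocyte, 300 for neutrophil, 15 for granulocyte-monocyte progenitor, 10 for T or NK, 10 for B, 100 for plasma, 6 for dendritic, 1000 for erythroid, 40 for basophil or mast and 30 for endothelial markers. Within macrophages they were 60 for Kupffer and 40 for Gpnmb markers, and within hepatocytes 60 for acute-phase markers and 50 for Clu with Ly6d. The thresholds were set after the distributions were seen. The monocyte gate was read in cells that failed the macrophage, neutrophil, progenitor and dendritic gates, and 4 further gates yielded likewise. Cells of several gates were left out in place of a doublet caller. Members and lists were chosen with earlier results of these data known.

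Counts were added up within each class and divided by the class total to give CPM, with exact Poisson intervals, and ratios carry Clopper-Pearson intervals conditional on the summed count, at 95%. Calls needed 2-fold, a summed count of 30 and 50 CPM on either side, and genes were ordered by log2 ratio with 20 CPM added. Called members and called genes of a list were counted out of the whole list, including those under the minimum. Shares over all genes are of genes that passed the minimum. Values in full were given for up to 4 members with the most UMIs in each role, for up to 5 called members each way per class, and for up to 4 called genes per context list, and a few others were added to complete a group. Shares and spreads over cells were taken after thinning to 1000 UMIs where stated. A count of 0 is given the limit of 3 counts. Positions come from GENCODE and promoter windows from RefSeq, both on GRCm38. The work used Python 3.11.15, numpy 2.4.6, scipy 1.17.1, pandas 2.3.3 and matplotlib 3.10.9.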

Additional observations from a re-analysis of the deposited data

How the results depend on the processing

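The comparisons were repeated with stricter cell filters, marker thresholds doubled or halved, cells of several gates kept in the class of highest marker share, means over cells in place of summed counts, totals without mitochondrial genes, haemoglobins and markers, no filter on low counts, a summed count of 100, the hepatocyte profile subtracted as free RNA from the other classes, cells thinned to 1000 UMIs and, added after seeing the data, other classes weighted equally. Of 873 repeated ratios of called members, 825 kept their direction and stayed past 2-fold, 47 were under 2-fold or under the minimum and 1 turned, Gsta2 in Clu-high cells, whose log2 ratio was 0.17 after thinning. The run without a filter on low counts could not move a called ratio, so it adds to the 825 by construction. A summed count of 100 left each ratio unchanged and could only remove a call. The 33 members higher in hepatocyte-gated cells stayed within 1.5 times that number under every alternative run.

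Members lower in Gpnmb-high macrophages numbered 3 in place of 5 with doubled thresholds, several-gate cells, means over cells, the profile subtracted or thinning. With no filter on low counts they numbered 10, with 9 higher in place of 4, members lower in hepatocyte-gated cells 5 in place of 1, and in mesothelial-gated cells 22 in place of 13. Pericentral cells had 7 members higher and 6 lower with doubled thresholds, 1 higher with halved thresholds or thinning, and 4 higher with means over cells or without the filter, in place of 2 and 3. Acute-phase-high cells had 0 higher and 3 lower with doubled thresholds, 1 higher with means over cells, 2 lower without the filter and 1 lower after thinning, in place of 2 and 0. Clu-high cells had 7 lower with halved thresholds, 6 higher with means over cells and 5 higher without the filter, in place of 11 and 3. Fewer cells, fewer counts or no minimum come with the doubled thresholds, the thinning and the missing filter by construction, and for the rest the cause was not tested. The subtraction was not run within hepatocyte-gated cells. No paired analysis was possible because the samples are pooled in 1 matrix, and for the same reason no replicate could be left out.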

Other observations

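Cells that fell into no comparison were not poor in these genes. The 272 cells that passed no gate had 2.05% of their UMIs in members, with Gstm1 at 1624 CPM, Mt1 at 1340 CPM, Gsta3 at 725 CPM and Gclm at 370 CPM, and Alb at 308 CPM. The 314 cells that passed several gates had 1.47%, with Gstm1 at 894 CPM, Gsta3 at 464 CPM and Alb at 1526 CPM. The 40 cells gated as T or NK cells had 0.602% of their UMIs in members, and the 16 endothelial-gated cells, too few to compare, had Sod3 at 72.6 CPM and Nfe2l2 at 417 CPM, from 4 and 23 UMIs.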
